A study of Homo sapiens with 8 samples.

Results

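In SK-BR-3 cells, 45 of 9245 messenger RNA entries differed more than 2-fold from wild type in every knockout clone of 1 experimental set. The direction was the same in all clones of that set. Leaving out 7 entries by name left the 38 genes studied here. The SK-BR-3 line was established from a human breast carcinoma and is known as luminal, with amplified ERBB2. The 4 groups were mir-141 knockout cells, mir-200c knockout cells, double knockout cells lacking both microRNAs, and wild-type cells, each with 1 library in set 1 and 1 in set 2. The microRNA genes had been disrupted with TALENs, designed nucleases that cut a chosen sequence, and each knockout library came from its own clone. Set 1 held clone 23 for mir-141, clone 11 for mir-200c and clone 55 for the double knockout, and set 2 held clones 10, 29 and 61 in the same order, so genotype and clone cannot be told apart within a set.

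The values are the log2 ratios that the authors deposited, each of a knockout clone over the wild type of its set, where 1 stands for a 2-fold difference. The genes were chosen by these set 1 ratios: a gene was taken when its values in clones 23, 11 and 55 were all above 1 or all below −1. Of all entries, 26 met this above (0.281%) and 19 below (0.206%). Of these, 7 (FBP1, GATA2, OLFM4, PIP, MUC5B, TRAF6 and a histone gene) were left out by name, which left 22 higher and 16 lower genes. Clone 23 limited the higher genes most, since 59 would meet the rule without it, 39 without clone 11 and 24 without clone 55, and 23, 25 and 21 lower genes. In single clones of set 1, 0.584% (mir-141), 1.7% (mir-200c) and 1.53% (double) of entries were above 1, and 0.562%, 1.06% and 0.746% were below −1. Because the set 1 ratios chose the genes, they are given as a description, with no test. All 3 share the denominator of the set 1 wild-type library, so a value peculiar to that library would appear in all of them, and that part was not tested. Levels and depth could not be read from ratios, so a gene with few reads cannot be told from one with many. With bulk RNA, fewer cells of a type and less RNA per cell cannot be told apart.

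Mir-141 and mir-200c are neighbours in 1 cluster on chromosome 12 and are members of the mir-200 family, known to keep epithelial cells epithelial. A microRNA guides silencing proteins to messenger RNAs that pair with its seed, bases 2 to 8, mostly in the 3′ untranslated region, and its loss is expected to raise direct targets. Both mature sequences are shown because the seeds, in capitals, define the sites searched for below. They are from RefSeq (GRCh38.p14, plus strand) and lie at chr12:6964155-6964176 and chr12:6963742-6963764, and the microRNAs themselves were not analysed here.
hsa-miR-141-3p: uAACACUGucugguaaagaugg
hsa-miR-200c-3p: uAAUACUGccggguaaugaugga

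**Figure D1:**
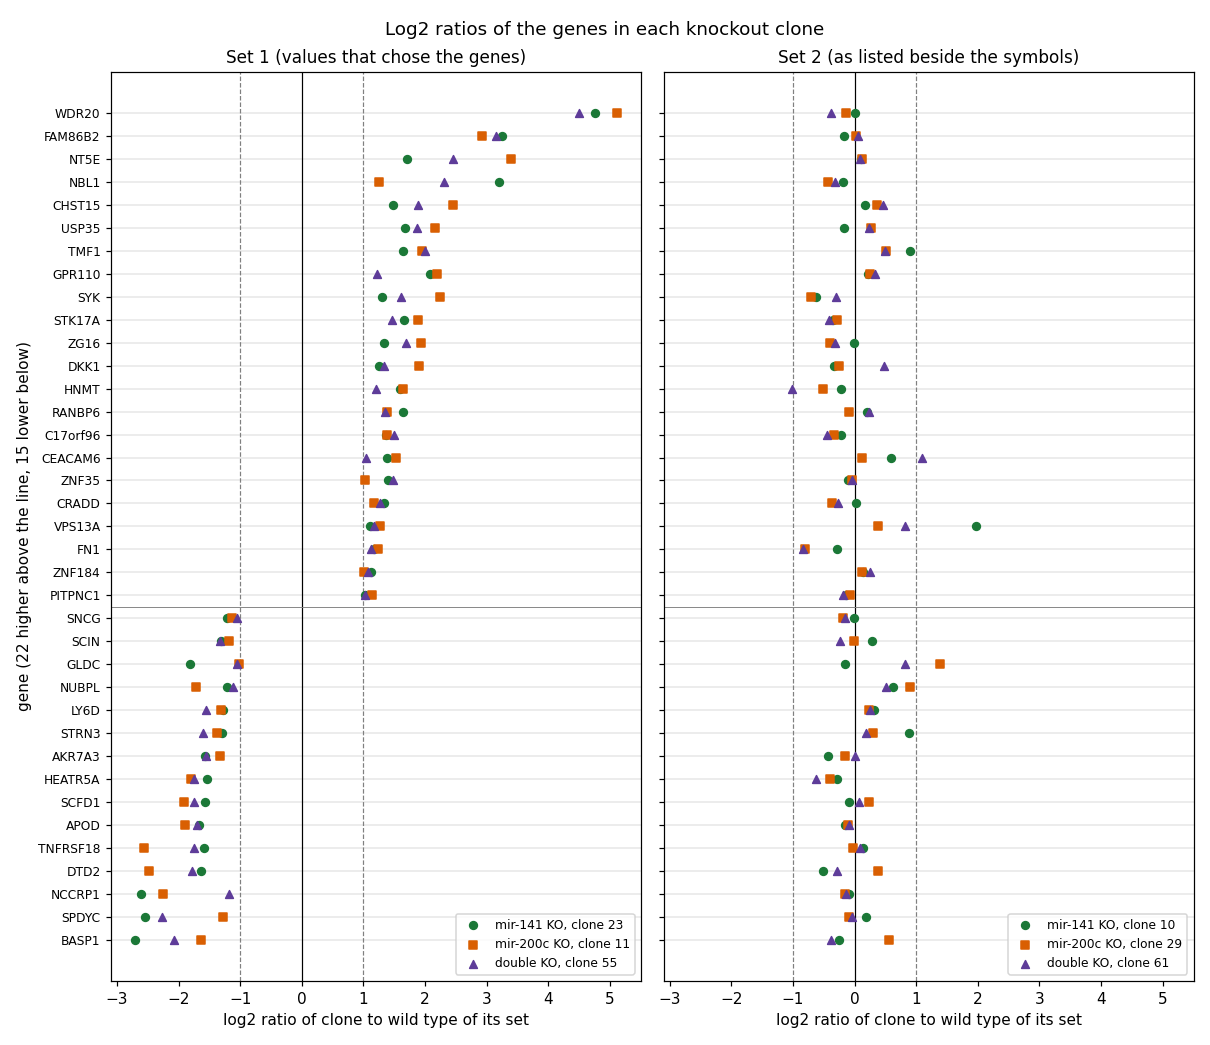
Log2 ratio of every knockout clone over its own wild type (x) for 22 higher and 15 lower genes (y), with set 1 on the left and set 2 on the right, and dashed lines at −1 and 1. In set 1 all points lie beyond the lines because this chose the genes, while in set 2 most lie between them.

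The highest gene was WDR20, a WD-repeat cofactor that activates the deubiquitinases USP12 and USP46. Its set 1 ratios were 4.76 without mir-141, 5.11 without mir-200c and 4.51 without both, an order of clones kept for all genes below, with a mean of 4.79 ± 0.30 (SD, n = 3 clones). The 3 clones differed by at most 0.61, against a median range of 0.44 in the higher genes, and all lay far above every other gene of the group. The entry is 1 of 36 RefSeq mRNAs annotated to WDR20 (chromosome 14, 102139503 to 102224847, GRCh38), and the other transcripts of the gene were not analysed here. Its partners on a list of 12 genes lay nearer to 0: USP12 had 0.04, 0.32 and −0.31, USP46 had −0.11, −0.05 and 0.14, and WDR48, the related cofactor, had 0.36, 0.29 and 0.45. WDR20 was the only measured member of that list beyond 2-fold in any clone of set 1. HSP90AA1 and MOK overlap WDR20 in the annotation and had −0.12, 0.37 and −0.21, and −0.54, −0.21 and −0.47. No label states whether counting used the strand, so overlapping genes are uncertain.

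Several of the 22 higher genes encode secreted or cell-surface proteins, a grouping made after their values were seen. NT5E, the ecto-nucleotidase CD73 that makes adenosine outside the cell, had 1.71, 3.39 and 2.45 in set 1. NBL1, a secreted antagonist of bone morphogenetic proteins (BMPs), had 3.20, 1.25 and 2.30. The 2 genes ran in opposite order over the clones, with NT5E highest in the mir-200c knockout and NBL1 highest in the mir-141 knockout. NBL1 overlaps the entry MINOS1, which had 0.08, 0.32 and 0.09, and a read-through of both genes is annotated there. DKK1, a secreted inhibitor of Wnt receptors, had 1.26, 1.90 and 1.34. ZG16, a lectin-like protein of secretory granules, had 1.33, 1.93 and 1.69. Both were highest in the mir-200c knockout.

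The adhesion receptor GPR110 had 2.07, 2.20 and 1.22, and FN1, the matrix protein fibronectin, had 1.17, 1.23 and 1.12. For FN1 the clones differed by no more than 0.11, among the narrowest spreads of the 22. CEACAM6, a surface adhesion protein with close homologues, had 1.39, 1.52 and 1.05. CHST15, a Golgi enzyme that sulfates chondroitin chains, had 1.48, 2.45 and 1.89. GPR110 was the only 1 of 8 measured adhesion receptors that was beyond 2-fold in any set 1 clone.

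Kinases and an adaptor of cell death formed a smaller group. SYK, a tyrosine kinase best known from immune receptor signalling, had 1.30, 2.25 and 1.62. STK17A, a kinase related to death-associated protein kinase, had 1.65, 1.89 and 1.47, while COA1, which overlaps it, had −0.33, −0.66 and −0.63. CRADD, an adaptor that recruits caspase-2, had 1.34, 1.17 and 1.27. SYK was, with CHST15, NT5E, DKK1, ZG16, USP35 and VPS13A, among the genes lowest in the mir-141 knockout and highest in the mir-200c knockout.

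The other higher genes had varied roles. USP35, a deubiquitinase, had 1.67, 2.15 and 1.87, and KCTD21, which overlaps it, had 0.06, 0.48 and 0.31. TMF1, a Golgi-associated protein, had 1.65, 1.95 and 1.99. RANBP6, of the importin family, had 1.63, 1.39 and 1.35. VPS13A, a lipid transfer protein of membrane contacts, had 1.10, 1.27 and 1.17 and PITPNC1, a phosphatidylinositol transfer protein, 1.02, 1.14 and 1.02, which puts both near the threshold. HNMT, which inactivates histamine by methylation, had 1.58, 1.64 and 1.20.

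Of nuclear proteins, C17orf96, which binds the Polycomb complex PRC2, had 1.36, 1.39 and 1.49. The zinc finger genes ZNF35 (1.40, 1.02 and 1.48) and ZNF184 (1.12, 1.01 and 1.08) have related family members, so their reads are uncertain. FAM86B2, at 3.24, 2.93 and 3.15 the second highest by mean, belongs to a family of near-identical copies and is uncertain too. Just outside the threshold lay CYP4Z1 (1.17, 0.997 and 1.21), PAPLN (0.94, 2.09 and 1.64) and the keratin KRT17 (0.94, 2.20 and 2.07). Just inside it lay ZNF35, PITPNC1 and ZNF184.

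Among the lower genes, 5 of the 15 described here lie within 1 short stretch of chromosome 14. From the centromere outward these are SCFD1, a regulator of membrane fusion between endoplasmic reticulum and Golgi, with −1.57, −1.92 and −1.76, and STRN3, a scaffold of the STRIPAK phosphatase complex, with −1.30, −1.37 and −1.60. HEATR5A, a HEAT-repeat protein, had −1.54, −1.81 and −1.74. DTD2, which removes D-amino acids from transfer RNA, had −1.64, −2.49 and −1.79, and NUBPL, an assembly factor of respiratory complex I, had −1.21, −1.72 and −1.12. Apart from DTD2 and NUBPL, each of these genes differed by no more than 0.35 between clones. Their proteins have no function in common that the names give, and what they share is position.

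Within or beside this stretch, 3 measured genes that missed the threshold also had ratios below 0. G2E3, a ubiquitin ligase, had −0.66, −0.77 and −0.55, AP4S1, an adaptor subunit, had −0.50, −0.62 and −0.54, and ARHGAP5, a GTPase-activating protein, had −0.87, −0.91 and −0.82. The 8 genes described from G2E3 to ARHGAP5 (chr14:30559123-32159728, GRCh38, 1.6 Mb, 12 coding genes annotated) were thus below −0.5 in all set 1 clones, a bound chosen after the values were seen. Their medians were −1.25, −1.55 and −1.36. The next measured gene before the stretch, SDR39U1, lies 6.12 Mb away with −0.12, −0.41 and −0.20, and the next one after it, SPTSSA, lies 2.27 Mb away with −0.19, −0.54 and 0.02. The edges could therefore be placed only to within those gaps. STRN3 overlaps AP4S1 in the annotation.

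**Figure D2:**
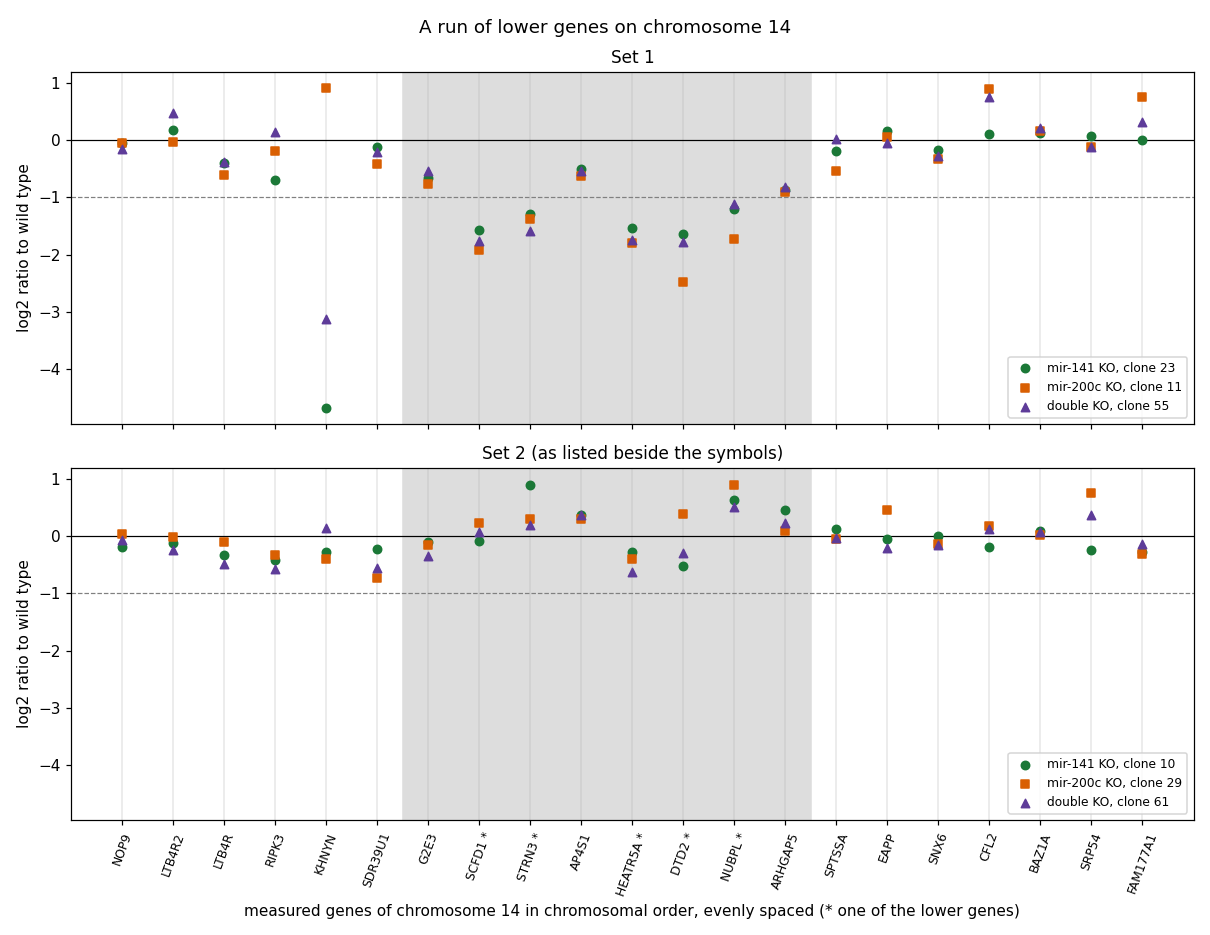
Log2 ratios to wild type (y) of 21 measured genes of chromosome 14 in chromosomal order, evenly spaced (x), for the 3 clones of set 1 (top) and set 2 (bottom), with the 8 genes from G2E3 to ARHGAP5 shaded and the lower genes starred. In set 1 all shaded genes lie below −0.5 in every clone, and the set 2 values listed beside the same symbols scatter around 0.

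The promoter of DTD2, the gene of this stretch with the lowest mean ratio (RefSeq, GRCh38.p14, chr14:31457457-31457756, minus strand), is shown with that of WDR20, the highest of the 38 genes (chr14:102139647-102139946, plus strand). Capitals mark the E-box CAGGTG or its reverse complement CACCTG, the motif bound by the ZEB repressors that mir-200 microRNAs are known to restrain.
DTD2: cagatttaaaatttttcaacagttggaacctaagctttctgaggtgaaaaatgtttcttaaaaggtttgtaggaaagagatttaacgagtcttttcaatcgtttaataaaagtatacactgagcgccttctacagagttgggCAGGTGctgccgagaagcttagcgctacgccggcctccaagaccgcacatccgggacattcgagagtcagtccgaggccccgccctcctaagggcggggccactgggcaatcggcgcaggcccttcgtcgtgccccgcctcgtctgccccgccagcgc
WDR20: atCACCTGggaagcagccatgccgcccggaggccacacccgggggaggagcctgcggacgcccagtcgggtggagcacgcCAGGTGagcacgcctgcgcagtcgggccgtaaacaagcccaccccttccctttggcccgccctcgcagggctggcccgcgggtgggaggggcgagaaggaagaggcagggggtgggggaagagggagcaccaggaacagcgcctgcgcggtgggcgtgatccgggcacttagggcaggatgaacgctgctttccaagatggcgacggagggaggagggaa

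Promoters of 300 bases were found in RefSeq for 31 of the 38 genes. Searched on both strands, the E-box occurred in 2 of 19 promoters of higher genes (SYK and WDR20) and in 4 of 12 of lower genes (BASP1, DTD2, GLDC and TNFRSF18), against 18.3% of the 7418 promoters found for all entries. The CCAAT box, searched as CCAAT on both strands, occurred in 5 of 19 and 7 of 12, against 37.5%. TATAAA on both strands occurred in 2 of 19 and 3 of 12, against 4.8%. With so few promoters these counts are descriptions, and a match is not a binding site.

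The 10 other lower genes lie apart from each other. BASP1, a membrane-bound signalling protein, had −2.70, −1.64 and −2.07. NCCRP1, an F-box-related protein, had −2.61, −2.26 and −1.19, and SPDYC, an activator of cyclin-dependent kinases, had −2.55, −1.28 and −2.27. These 3 genes varied most between the clones: NCCRP1 was least reduced in the double knockout, and SPDYC and BASP1 in the mir-200c knockout. Of the 9 measured genes on the list of speedy and cell cycle kinase genes, only SPDYC was below −1 in any set 1 clone. CDKN1A, on the same list, was above 1 in the double knockout (0.05, 0.88 and 1.01).

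TNFRSF18, a co-stimulatory receptor of the tumour necrosis factor family, had −1.58, −2.56 and −1.76. APOD, a secreted lipocalin of apocrine breast secretions, had −1.67, −1.89 and −1.70. LY6D, a surface antigen of squamous and luminal epithelium, had −1.27, −1.31 and −1.55. AKR7A3, an aldo-keto reductase, had −1.56, −1.32 and −1.55, while its homologue and neighbour AKR7A2 averaged 0.11. APOD, LY6D and AKR7A3 had similar ratios in all 3 clones, with differences of at most 0.28.

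SCIN, an actin-severing protein, had −1.31, −1.18 and −1.33 and lay 13th in order of the smallest ratio. The remaining genes, GLDC, which degrades glycine (−1.82, −1.01 and −1.05), and SNCG, gamma-synuclein (−1.21, −1.13 and −1.05), lay just inside the threshold, as did NUBPL. Just outside it were NSMAF, an adaptor of neutral sphingomyelinase (−3.57, −0.996 and −3.62), PADI3 (−1.56, −1.15 and −0.98) and CA8 (−1.19, −2.69 and −0.94). NSMAF missed the bound through the mir-200c knockout alone. It was the only 1 of 24 measured genes of sphingomyelin and ceramide metabolism below −1 in any set 1 clone. SMPDL3A, on that list, was above 1 in the mir-200c knockout (0.28, 1.25 and 0.62).

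Away from the stretch on chromosome 14, the genes had neighbours with ratios near 0. For each gene the 5 nearest measured genes on either side were taken, and the median of their mean set 1 ratios was compared with the gene itself. For the 22 higher genes, which lie on 14 chromosomes, this median ran from −0.29 (ZNF184) to 0.22 (RANBP6), and for the 10 lower genes elsewhere it ran from −0.19 to 0.26. For the 5 genes described on chromosome 14 it lay between −1.40 and −0.71, but 4 or 5 of the 10 neighbours of each were themselves lower genes that the set 1 ratios had chosen. Over the remaining 5 or 6 neighbours the median was −0.55 for STRN3 and HEATR5A, −0.51 for SCFD1, −0.25 for DTD2 and −0.24 for NUBPL, so that DTD2 and NUBPL lay within the range of the higher genes. The neighbours left for these 2 genes include SPTSSA, EAPP and SNX6, beyond the stretch, with means of −0.24, 0.06 and −0.25, and for NUBPL also CFL2 (0.59). Those within the stretch, AP4S1 and ARHGAP5, averaged −0.55 and −0.86. RANBP6 and GLDC lie 516.8 kb apart on chromosome 9 with ratios of opposite sign, and UHRF2, measured between them, averaged 0.28. NBL1 and AKR7A3 lie 307.7 kb apart on chromosome 1, again with opposite signs, and the 4 measured genes between them averaged 0.11 to 0.34.

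**Figure D3:**
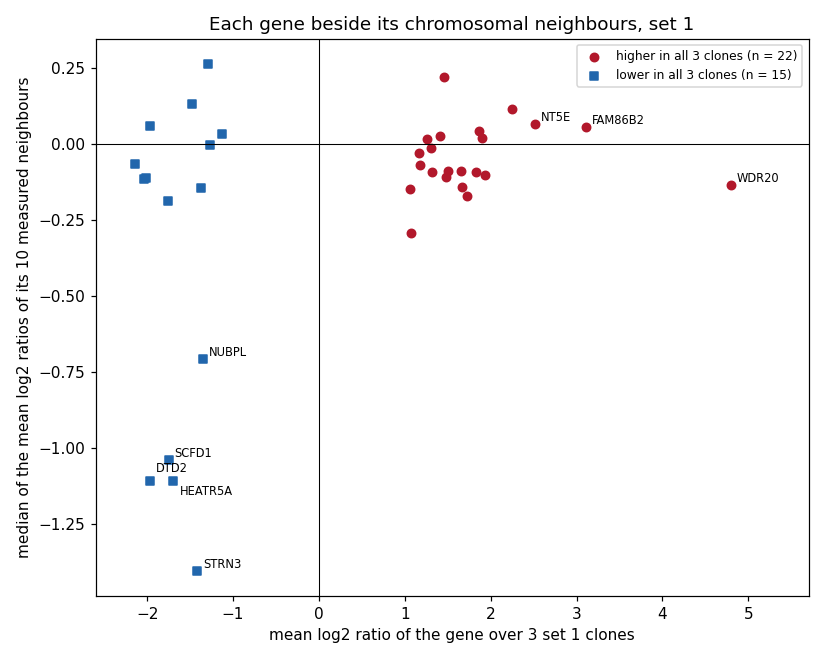
For 22 higher and 15 lower genes, the mean log2 ratio over the 3 set 1 clones (x) and the median of the mean ratios of the 10 measured neighbours of each (y). The 5 genes of the chromosome 14 stretch have neighbours between −1.40 and −0.71, which include other lower genes of the stretch (−0.55 to −0.24 without them), and all others lie between −0.29 and 0.26.

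Seed sites, matches of 7 bases to the reverse complement of either seed, were counted in the 3′ untranslated region of the transcript of each entry (GENCODE release 29). The site is CAGTGTT for mir-141-3p and CAGTATT for mir-200c-3p. Among higher genes, 3 of 22 held a mir-141-3p site (13.6%, against 18.2% of 9204 entries) and 4 of 22 a mir-200c-3p site (18.2%, against 16.2%). Among lower genes the counts were 2 of 16 for each microRNA (12.5%). The regions had median lengths of 1550 bases in higher genes, 682 in lower genes and 1021 in all entries. Neither site was present in 16 of 22 higher genes (72.7%) and 12 of 16 lower genes (75%), against 71.4% of all entries, shares near the background.

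VPS13A was the only 1 of the 38 genes with sites of both microRNAs. The sites of VPS13A, of FN1 and TMF1, which have 2 of 1 kind, and of WDR20 and STK17A are shown with 8 bases on either side, the site in capitals (GRCh38, mRNA strand).
VPS13A mir-141-3p site, chr9:77418056-77418078, plus: taatgagtCAGTGTTtttagcat
VPS13A mir-200c-3p site, chr9:77418949-77418971, plus: tcacttgcCAGTATTagttgatc
FN1 mir-200c-3p site, chr2:215361296-215361318, minus: ataccgctCAGTATTttaaatga
FN1 mir-200c-3p site, chr2:215361010-215361032, minus: atttttccCAGTATTtttatacg
TMF1 mir-141-3p site, chr3:69021533-69021555, minus: attccagaCAGTGTTtctgtcat
TMF1 mir-141-3p site, chr3:69020307-69020329, minus: cagttgtaCAGTGTTtagcatgt
WDR20 mir-200c-3p site, chr14:102214818-102214840, plus: tttagtatCAGTATTgttttata
STK17A mir-200c-3p site, chr7:43626603-43626625, plus: gttaaacaCAGTATTaggcaaat
In VPS13A and STK17A the mir-200c-3p site is followed by an A, the base that favours binding opposite the first base of the microRNA. HNMT also held a mir-141-3p site, and among lower genes HEATR5A held a mir-141-3p site and STRN3 and BASP1 mir-200c-3p sites. WDR20 and STK17A, with a site for mir-200c-3p only, had ratios in the 3 set 1 clones that differed by at most 0.61 for WDR20 and 0.42 for STK17A.

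Ratios of 1 clone to another leave the wild type out. Between the double and the mir-141 knockout of set 1, 0 of 22 higher and 1 of 16 lower genes differed more than 2-fold, against 0.714% of all entries. Between the double and the mir-200c knockout, 1 higher and 1 lower gene did (1.77% of all entries), and between the mir-200c and the mir-141 knockout, 2 higher and 2 lower genes did (2.11%). The higher ones were NT5E, at 1.68 above the mir-141 knockout in the mir-200c knockout, and NBL1, at −1.94 in the same comparison and at 1.05 in the double over the mir-200c knockout. Of lower genes, SPDYC (1.27) and BASP1 (1.06) were higher in clone 11 than in clone 23, and NCCRP1 was higher in clone 55 than in clone 23 (1.43) and clone 11 (1.07). Over 3 clones the range of a gene had a median of 0.44 in higher genes, 0.32 in lower genes and 0.29 in all entries. The ratio farthest from 0 was that of the mir-200c knockout for 14 of 22 higher and 6 of 16 lower genes, against 4550 of 9245 entries, and that of the mir-141 knockout for 5 higher and 7 lower genes, against 1707 entries. With 1 library per clone, these differences have no replicate check.

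**Figure D4:**
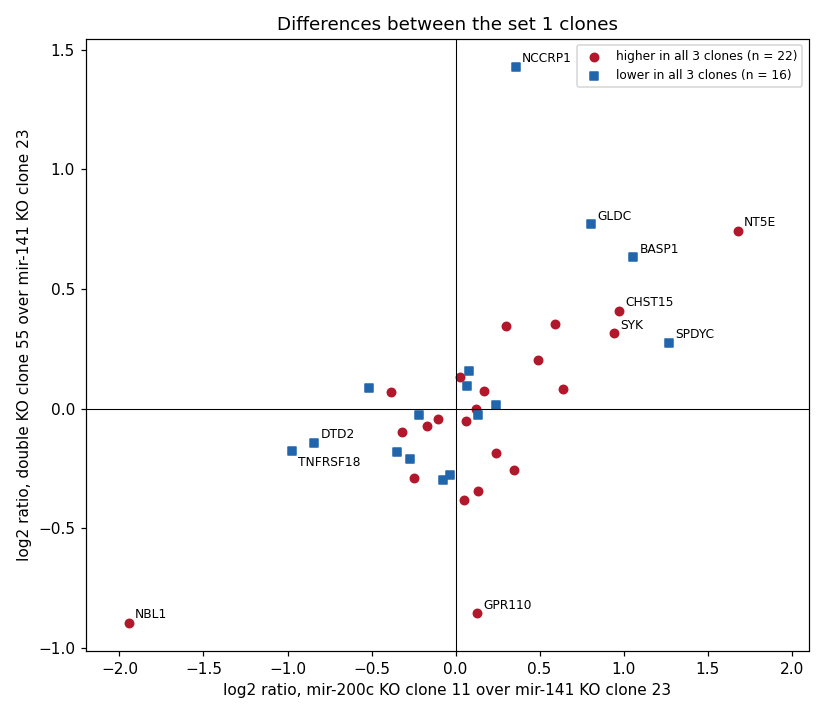
Log2 ratio of the mir-200c knockout over the mir-141 knockout (x) and of the double knockout over the mir-141 knockout (y) in set 1 for the 22 higher and 16 lower genes. NBL1, NT5E, NCCRP1, SPDYC and BASP1 stand apart, and most others lie within 0.5 of the origin on both axes.

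Set 2, which the choice of genes did not use, has other clones and another wild type. Over all entries its ratios were unrelated to those of set 1 (9 pairs of clones, Pearson −0.00224 to 0.0105, across genes, which are not replicates). Between clones of the same set, which share a wild type, Pearson was 0.502 to 0.709 in set 1 and 0.506 to 0.697 in set 2. Whether the set 2 values stand beside their own gene names was not tested, and a set 2 value here is the value listed beside a symbol. None of the 38 genes lay beyond 2-fold in the same direction in all 3 clones there, and the background was 0.335% of entries above 1 and 0.141% below −1. Of 9245 entries, those past the fold in all 3 clones, before any name was left out, were 45 in set 1 and 44 in set 2, and 0 were in both. At shares this small a count of 0 is near the background, for the 38 genes as for the 45 entries. Of higher genes, 7 of 22 had only ratios above 0 in set 2 (26.1% of all entries) and 9 only ratios below 0 (32.9%). Of lower genes, 4 of 16 had only ratios below 0 and 4 only ratios above 0. WDR20 had 0.00, −0.15 and −0.38 in set 2, NT5E had 0.10, 0.13 and 0.09, and NBL1 had −0.18, −0.43 and −0.32.

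Knockout clones of set 2 were compared with their wild type over all entries in limma, with the lone wild type assumed to vary like the clones. At an adjusted p under 0.05, 0 of the 38 genes were called and 0 of 9245 entries (0%). At an unadjusted p under 0.05 there were 751 entries (8.12%), among them 2 higher and 2 lower genes, including TMF1, SYK and NUBPL. TMF1, with 0.90, 0.51 and 0.50, had only ratios above 0, at 0.63 ± 0.21 (limma, SE, adjusted p = 0.601). SYK, with −0.63, −0.71 and −0.31, had only ratios below 0, at −0.55 ± 0.20 (limma, SE, adjusted p = 0.601). NUBPL, with 0.63, 0.90 and 0.50, was above 0 there and below it in set 1, at 0.68 ± 0.20 in set 2 (limma, SE, adjusted p = 0.597). None of these passed the adjusted threshold. VPS13A had 1.98, 0.39 and 0.82 and CEACAM6 had 0.59, 0.12 and 1.10, so each was above 2-fold in 1 clone of set 2. GLDC, a lower gene, had −0.16, 1.38 and 0.82. The only ratio of the 38 genes below −1 in set 2 was that of HNMT in the double knockout, with −0.22, −0.51 and −1.01 over the clones. Of all entries, 1.51% (mir-141), 0.973% (mir-200c) and 2.42% (double) were above 1 in set 2, and 0.963%, 0.8% and 0.919% were below −1.

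The set 2 values listed beside the 8 neighbouring genes of chromosome 14 were not low together. Of them 4, 2 and 3 were below 0, and the medians were 0.14, 0.26 and 0.13. Whether these values belong to those genes was not tested, so the behaviour of the stretch in set 2 cannot be read from them. Adjacent genes on a chromosome had Spearman correlations of 0.0746 to 0.112 in the columns of set 1 and of −0.00848 to 0.0133 in those of set 2. These describe the libraries across genes, which are not replicates.

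Of the markers, 8 luminal epithelial genes ran from −0.50 to 0.54 in set 1 and 6 genes of the ERBB2 amplicon from −0.35 to 0.68, so none reached 2-fold. Of 8 basal or myoepithelial markers 3 were measured, KRT14 (0.52, 1.00 and 0.95), KRT17 and CAV1 (1.07, 0.68 and 2.00), with medians of 0.94, 1.00 and 2.00. Of fibroblast markers 3 of 9 were measured, between −0.41 and 1.29, of blood cell markers 3 of 7, between −0.54 and 1.05, and of keratinocyte markers 2 of 8, between −0.40 and 1.37. Their part in the shifts of FN1, SYK, CEACAM6 or LY6D was not tested. Ratios give no level, so the presence of a cell type cannot be read from them.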

How the data were processed

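Poly(A) RNA was captured on oligo(dT) beads, fragmented, ligated to adaptors at both ends and sequenced on an Illumina HiSeq, per the labels' protocols. TopHat2 and GRCh37.p10 are named in the submitters' processing notes, but counting, scaling and filters are not given in the sources used for this work. The authors deposited log2 ratios of 6 knockout clones over the wild-type library of their set, per RefSeq entry, with column means near 0. Depth is unknown, and no interval or filter that needs it was given.

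The labels give a set shared by same-numbered libraries, and every ratio was taken within it, so the set pairs the libraries. The design assumed values per library; with ratios, wild type was set to 0. Clones of set 2 were tested against their wild type with limma 3.58.1 in R 4.3.3, 2-sided, with Benjamini-Hochberg adjustment over 9245 entries. On simulated data the size of the estimates was checked, and the share of true changes that the fit would call is not given here. P-values measure the spread between these clones, which differ in genotype.

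Of the entries, 9226 matched a GENCODE release 29 gene (9011 by accession), and all coordinates are on GRCh38. All genes of the rule are named but 1 lower gene, which enters the counts and is not reported here. Genes and lists were chosen with earlier results of these data known. Columns of samples outside the series numbered 0. Alternatives were another threshold, median centring, robust moderation, both sets together and leaving out each clone.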

Additional observations from a re-analysis of the deposited data

Results flagged for a closer look

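For 12 of the 37 genes described, every clone of set 2 lay on the other side of wild type from every clone of set 1, and the difference was not tested. Set 1 had chosen these genes, and the set 2 value is the 1 listed beside the symbol. Among the 22 higher genes, mean set 2 ratios were −0.64 for FN1, −0.58 for HNMT, −0.55 for SYK, −0.35 for STK17A, −0.34 for C17orf96, −0.31 for NBL1, −0.24 for ZG16, −0.13 for PITPNC1 and −0.0627 for ZNF35. Among the lower genes they were 0.68 for NUBPL, 0.46 for STRN3 and 0.27 for LY6D. Of all 22 higher genes, 40.9% had only ratios below 0 in set 2, against 32.9% of all entries. Of all 16 lower genes, 25% had only ratios above 0, against 26.1% of all entries. With so few genes these shares are near the background.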

How the results depend on the processing

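The number of genes depends on the bound: at a log2 ratio of 0.8 there were 41 higher and 23 lower genes, and at 1.5 there were 5 and 6. Leaving out 1 clone of set 1 gave 24 to 59 higher genes (59 without the mir-141 knockout, clone 23, and 39 without the mir-200c knockout, clone 11) and 21 to 25 lower genes (25 without clone 11). After median centring of each column 23 higher and 15 lower genes met the rule. In set 2, 0 genes of either group were called with limma under median centring, robust moderation, without any 1 clone (range 0 to 0) and with both sets fitted together, with the set as replicate block (0) or without it (0), where set 1 had chosen the genes. No entry of the whole series was called in any of these fits either, so these counts are no result about the genes. Over all entries, unadjusted p under 0.05 gave 751 as reported, 484 without the double knockout, clone 61, and 2172 with both sets and no block. The fit with no block treated the ratios of a set as independent, although they share the denominator of their wild type. Noise of a wild-type library is thus counted repeatedly, and no conclusion is drawn from the 2172. At an unadjusted p, 2 higher and 2 lower genes passed in the set 2 fit as reported. The count of genes beyond the fold in all set 2 clones, in the direction of set 1, was 0 at every bound, after centring and without any 1 clone. At the main bound 0.335% of all entries were above 1 and 0.141% below −1, so 0 is near the background in groups this small. Depth is unknown, so precision for genes with few reads could not be judged.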

Other observations

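Other members of the listed pathways were beyond 2-fold in some set 1 clones but not in all 3. Among 14 measured BMP genes, the binding proteins FSTL1 (0.25, 1.01 and 1.06) and FSTL3 (0.39, 0.75 and 1.02) and the ligand BMP7 (0.00, 1.23 and −0.47) exceeded 2-fold in at least 1 clone beside NBL1. The target gene ID2 was below −1 in the mir-200c knockout (−0.59, −1.44 and −0.77). Of 18 measured genes of toll-like receptor and TRAF signalling, 0 were beyond 2-fold in any clone (−0.52 to 0.29). TRAF6, which met the rule and was left out by name, was not on that list. Of 14 secretory luminal products and 7 imprinted genes measured, 0 were beyond 2-fold in all 3 clones. Single values ran from −2.17 to 2.48 in the secretory list and from −3.20 to 1.19 in the imprinted list. PIP, MUC5B and OLFM4, which met the rule and were left out by name, were not on the secretory list.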
